A study of Mus musculus with 6 samples.

Results

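The MYC, MAX and MXD network is described here through 10 genes, named by symbol and found in the count files through the GENCODE M21 annotation: the MYC family genes Myc, Mycn and Mycl, their shared partner Max, the MXD family genes Mxd1, Mxd3, Mxd4 and Mxi1, and the further MAX-binding repressors Mnt and Mga. All 10 were found among the 54232 gene IDs of the files, and all 10 were among the 16150 genes that passed the filter on low counts. The samples are RNA-seq libraries of C57/B6 mouse fetal liver cells taken at E13.5 and sorted as negative for Ter-119, which marks red cells from an early stage of maturation on. The day 0 group (3 libraries) is the purified cells with no treatment, and the 30 h group (3 libraries) is such cells after 30 h in medium with erythropoietin, with the solvent DMSO added at 24 h for the last 6 h. The study concerns chromatin and nuclear condensation in late red cell maturation, and the question here is how the MYC activators and the MXD antagonists stood before and after the culture. The labels call both groups progenitor cells and do not say whether libraries of a group came from separate embryos or cultures, so the p-values rest on the spread among these libraries, which may be technical.

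MYC proteins bind DNA as pairs with MAX at the E-box CACGTG and recruit coactivators to genes of growth, ribosome production and cell division. MXD proteins and MNT also pair with MAX and bind the same sites, but bring the SIN3 and histone deacetylase corepressor, so the balance of MYC and MXD proteins on MAX is a textbook switch between growth and differentiation. In red cell precursors, MYC is known to decline as cells mature, and forced MYC expression is known to block that maturation. The data below are messenger RNA levels and do not measure the proteins or their binding.

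Library totals ranged from 19241780 to 29949173 counts. Of all genes tested, 74.5% passed the test (edgeR quasi-likelihood, Benjamini-Hochberg adjusted p below 0.05), 34.4% higher and 40.1% lower at 30 h, so a call alone does not set a gene apart. Of the calls, 46.1% were higher under TMM scaling. Scaling by library totals alone gave 29.1%, with a median log2 change over all genes of -0.58 in place of -0.09. Replicate 3 of the 30 h group stood apart in raw counts: the chi-square over genes, divided by its degrees of freedom, was 88.6 and 48.8 against the other 30 h libraries and 11.0 between those. Summed erythroid markers went from between 1646 and 1813 CPM (TMM-scaled counts per 1e6 library counts) at day 0 to between 83666 and 122053 CPM at 30 h, with 8 of 10 higher and 2 lower. Most of the sum at 30 h was Hbb-bs, which went from 370 ± 44.1 to 79735 ± 23294 CPM. The 2 lower were Kit and Gata2. Kit, the receptor that marks the progenitors named by the label, fell from 218 ± 12.6 to 38.4 ± 10.9 CPM. Gata2 fell from 62.7 ± 4.24 to 29.2 ± 4.37 CPM (SD, n = 3 in each group). Markers of other cells moved as well. Hepatoblast markers (10 of 10 lower) went from between 13540 and 15239 to between 787 and 2291 CPM, mesenchymal markers (7 of 8 lower) from between 1505 and 1918 to between 24.2 and 56.9 CPM, and endothelial markers (7 of 8 lower, 1 higher) from between 272 and 294 to between 147 and 187 CPM. Granulocyte and mast cell markers (3 of 9 higher, 4 lower) went from between 3184 and 3293 to between 3669 and 5693 CPM, macrophage markers (4 of 10 higher, 3 lower) from between 389 and 395 to between 870 and 1282 CPM, and megakaryocyte markers (1 of 7 higher, 5 lower) from between 646 and 771 to between 628 and 1002 CPM. Single genes made up much of some sums. Among macrophage markers, Lyz2 went from 168 to 900 CPM, while Vcam1 fell from 74.8 to 2.60 CPM. Among granulocyte markers, S100a9 went from 304 to 1913 CPM, while Mpo fell from 1910 to 546 CPM. Pf4 went from 165 to 480 CPM among megakaryocyte markers, and Egfl7 from 97.2 to 127 CPM among endothelial ones. Read alone, such sums do not give the direction of a cell type's markers. Lymphoid markers (5 of 7 tested lower) were at most 35.0 CPM in sum. Cd3e, which was not tested, had 0, 1 and 0 counts in the day 0 libraries and 0 in each 30 h library. In bulk libraries, fewer cells of a type and less RNA per cell cannot be told apart, and the part of these other cells in the results below was not tested.

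Of the 10 network genes, 3 were higher at 30 h (Mxd1, Mxd3 and Mxi1) and 5 were lower (Myc, Mycn, Mycl, Max and Mxd4), while Mnt and Mga did not pass. As 8 of 10 calls is close to the 74.5% of all genes, the number called is not a result about the network; the directions by role and the sizes are described instead. No MYC family gene was higher. Mxd4 was the single MXD family gene that did not rise. For all genes but Mga, 9 of 10, the day 0 and 30 h values were separate, as for 79.7% of the genes tested: 3 were separate and higher (all genes 36.3%) and 6 separate and lower (all genes 43.4%). Changes of at least 2-fold were called higher for 3 members (all genes 20.6%) and lower for 3, Myc, Mycl and Mxd4 (all genes 28.2%).

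**Figure D1:**
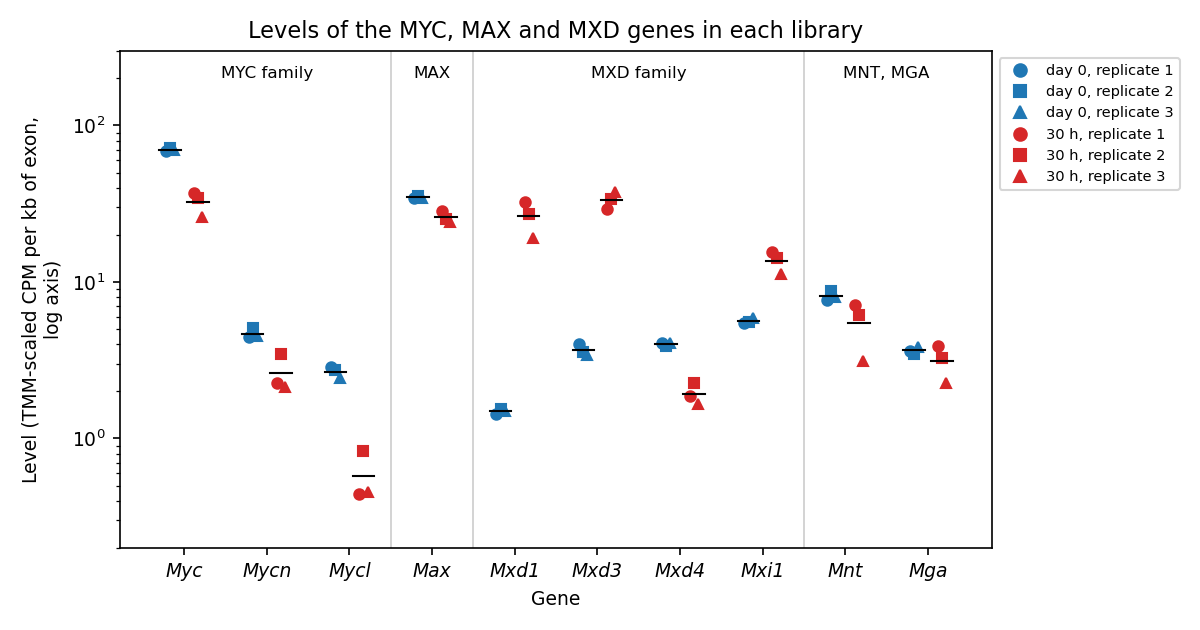
Level of each of the 10 genes as TMM-scaled CPM per kb of exon (log axis) in the 3 day 0 libraries (blue) and 3 libraries at 30 h (red), with black lines at group means and a marker shape for each replicate number. Mxd1, Mxd3 and Mxi1 lie above their day 0 values in every 30 h library, whereas Myc, Mycn, Mycl, Max and Mxd4 lie below them in every 30 h library.

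Myc (ENSMUSG00000022346, chr15:61985391-61990374, plus strand, mm10) encodes the MYC family member that held most of the family's RNA. In day 0 replicates 1, 2 and 3 it stood at 186, 196 and 190 CPM, and in 30 h replicates 1, 2 and 3 at 101, 93.0 and 71.0 CPM. All 30 h libraries were thus below all day 0 libraries, with 30 h replicate 3 the lowest. The log2 change was -1.11 ± 0.14 (SE), 2.16-fold lower (edgeR adjusted p = 0.000163).

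Mycn (ENSMUSG00000037169, chr12:12936093-12941914, minus strand), the paralog best known from neural development and neuroblastoma, was measured at 14.7, 16.7 and 14.8 CPM at day 0 and at 7.40, 11.4 and 7.05 CPM at 30 h. Its 30 h libraries all lay below day 0, but replicate 2 was well above the other two. The fall was 1.79-fold (log2 change -0.84 ± 0.19, edgeR adjusted p = 0.0043). Mycl (ENSMUSG00000028654, chr4:122995652-123002485, plus strand), the paralog first found amplified in lung cancer, went from 11.6, 11.0 and 9.80 CPM to 1.78, 3.34 and 1.83 CPM. Again 30 h replicate 2 was the highest of its group, at a level that rests on 56 counts, against 36 and 29 counts in replicates 1 and 3. The fall of Mycl was 4.69-fold, the largest of the 10 genes (log2 change -2.23 ± 0.24, edgeR adjusted p = 7.22e-05).

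Per kb of exon, a scale that allows genes of different length to be compared, Myc made up 90.3%, 90.2% and 91.0% of the summed MYC family level in the day 0 libraries and 93.2%, 88.9% and 91.0% at 30 h. Mycl had a share of 3.45% ± 0.31 at day 0, against 1.61% ± 0.52 at 30 h (SD, n = 3). The family level therefore followed Myc in both groups.

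Max (ENSMUSG00000059436, chr12:76937269-76962201, minus strand), the shared partner of the MYC and MXD proteins, was at 124, 127 and 123 CPM at day 0 and at 102, 90.9 and 86.6 CPM at 30 h. The groups did not overlap, and the change was the smallest of the network genes that passed: 1.34-fold lower, log2 change -0.42 ± 0.10 (edgeR adjusted p = 0.00445). The spread among 30 h libraries was also the smallest of the 10 genes, with a coefficient of variation of 8.40%, against 38.2% for Mnt and 38.4% for Mycl.

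Mxd1 (ENSMUSG00000001156, chr6:86647042-86669161, minus strand) encodes MXD1, also called MAD1, the first described antagonist, known to be induced when blood cells differentiate. It was the lowest of the 10 genes per kb of exon at day 0. Its level was 10.2, 11.0 and 10.6 CPM in the day 0 libraries and 231, 191 and 136 CPM at 30 h. Every 30 h library was far above day 0, and 30 h replicate 3 was again the lowest of its group. The rise was 17.6-fold (log2 change 4.14 ± 0.21, edgeR adjusted p = 2.01e-06), which placed Mxd1 at rank 179 among the 5553 genes called higher. Among genes tested, 2.79% were called higher with a change of at least 8-fold, and the network supplied Mxd1 and Mxd3 to them. An unnamed transcript model inside the Mxd1 locus, Gm44292, shares no exonic base with Mxd1 and reached 0.968 CPM at 30 h.

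Mxd3 (ENSMUSG00000021485, chr13:55325168-55329823, minus strand) encodes the MXD protein that is known from proliferating cells in S phase. It went from 9.44, 8.46 and 8.04 CPM to 69.3, 80.3 and 89.3 CPM, and was the single network gene whose highest 30 h value was in replicate 3. The rise was 9.20-fold (log2 change 3.20 ± 0.14, edgeR adjusted p = 1.11e-06), at rank 387 among genes called higher. The annotation places 105 of its 2369 exonic bases (4.43%) opposite exons of Prelid1, a gene of mitochondrial lipid transfer that went from 180 ± 4.15 to 355 ± 3.78 CPM (SD, n = 3 each). The labels do not state if reads were counted by strand, so it is not known whether reads in the shared bases were assigned to Mxd3, to Prelid1 or to neither.

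Mxi1 (ENSMUSG00000025025, chr19:53310518-53375810, plus strand), which encodes the MAX interactor MXI1, was at 37.2, 37.9 and 40.2 CPM at day 0 and at 106, 97.2 and 76.8 CPM at 30 h. The groups were well apart, and the rise was 2.43-fold (log2 change 1.28 ± 0.13, edgeR adjusted p = 6.29e-05). Scaled by library totals only, its log2 change was 0.79 and still passed. Mxd4 (ENSMUSG00000037235, chr5:34173883-34187720, minus strand), the family member also called MAD4, moved the other way, from 34.6, 33.0 and 34.7 CPM to 15.8, 19.2 and 14.0 CPM. All 30 h values were below all day 0 values, a 2.09-fold fall (log2 change -1.06 ± 0.13, edgeR adjusted p = 0.000167). The annotation places 514 exonic bases of Mxd4 opposite Gm42846 and 194 of Mxi1 opposite Gm10197, and both of those genes had 0 counts in all libraries.

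Mnt (ENSMUSG00000000282, chr11:74830920-74845725, plus strand) encodes a broadly expressed MAX partner that represses MYC targets through SIN3. It was at 35.6, 40.6 and 37.0 CPM at day 0 and at 32.7, 28.6 and 14.4 CPM at 30 h. The groups did not overlap, but 30 h replicate 3 was much lower than the others, and the log2 change of -0.58 ± 0.26 did not pass (edgeR adjusted p = 0.0793). Without 30h replicate 3 the log2 change was -0.29 and passed (edgeR adjusted p = 0.013). Without 30h replicate 1 it was -0.76 and passed (edgeR adjusted p = 0.0166). With each library's dependence of counts on GC content removed it was 0.06, on the other side of 0 (edgeR adjusted p = 0.846). No direction can therefore be given for Mnt.

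Mga (ENSMUSG00000033943, chr2:119897228-119969581, plus strand) encodes a very large MAX partner that also carries a T-box domain and joins a Polycomb complex. It stood at 55.7, 53.5 and 58.7 CPM at day 0 and at 59.4, 50.4 and 34.8 CPM at 30 h. These groups overlapped, and the log2 change of -0.21 ± 0.18 did not pass (edgeR adjusted p = 0.313). It passed as lower with scaling by totals only (log2 change -0.70, edgeR adjusted p = 0.0111), with upper-quartile scaling (-0.37, edgeR adjusted p = 0.0453) and after removal of the GC trend (-0.59, edgeR adjusted p = 0.0299), and was -0.02 without 30h replicate 3.

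**Figure D2:**
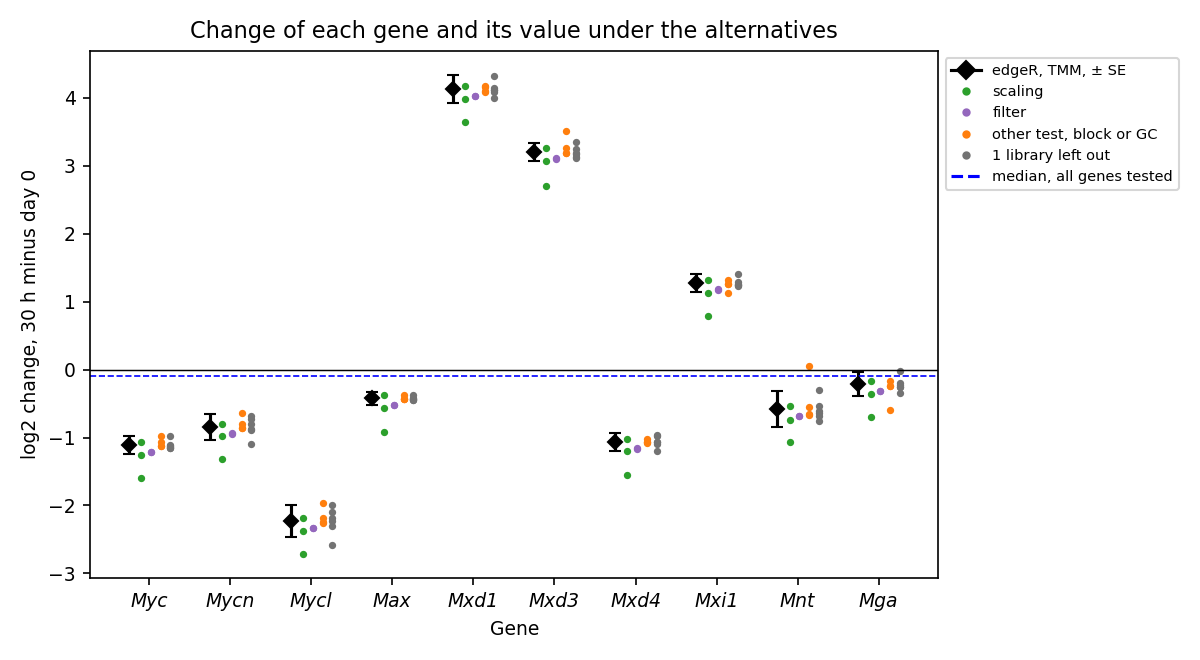
Log2 change of each gene at 30 h against day 0, with black diamonds and bars for the edgeR estimate ± SE and coloured points for the alternatives in scaling, filter, test and libraries used. The alternatives for Mxd1, Mxd3 and Mxi1 all lie above 0, those for Myc, Mycn, Mycl, Max and Mxd4 all below 0, and those for Mnt lie on both sides.

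The order of the genes per kb of exon differed between the groups. At day 0 Myc (70.1 ± 1.83 CPM per kb) and Max (34.7 ± 0.632) were well above the rest, followed by Mnt (8.15 ± 0.560), Mxi1 (5.63 ± 0.227), Mycn (4.67 ± 0.338), Mxd4 (4.02 ± 0.109), Mxd3 (3.65 ± 0.304), Mga (3.65 ± 0.171), Mycl (2.67 ± 0.223) and Mxd1 (1.49 ± 0.0558). Among these day 0 neighbours, the libraries of Mxd4 and Mxd3, and of Mxd3 and Mga, overlapped, and the other neighbours were separate. At 30 h Mxd3 (33.6 ± 4.23), Myc (32.5 ± 5.67), Mxd1 (26.3 ± 6.74) and Max (25.9 ± 2.17) each overlapped the next in order, so no one of them can be called the most abundant. Mxi1 (13.7 ± 2.17) was separate below them and above Mnt (5.45 ± 2.08), Mga (3.14 ± 0.810), Mycn (2.61 ± 0.731) and Mxd4 (1.92 ± 0.312), in which neighbours again overlapped. Mycl (0.573 ± 0.220) was the lowest. All are means ± SD with n = 3. Divided by the longest transcript instead of the union of exons, the same 4 genes led at 30 h, in the order Max (47.9 ± 4.02), Mxd3 (45.7 ± 5.75), Mxd1 (39.8 ± 10.2) and Myc (37.7 ± 6.58).

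The activators were set against the MXD antagonists within each library, as the sum of Myc, Mycn and Mycl per kb of exon over the sum of Mxd1, Mxd3, Mxd4 and Mxi1. This ratio does not depend on library scaling, and it gets no test, as its members were chosen with results known. The MYC family sum was 75.7, 79.8 and 76.8 CPM per kb at day 0 and 39.7, 38.5 and 28.7 at 30 h. The MXD family sum was 14.9, 14.6 and 14.9 CPM per kb at day 0 and 79.2, 77.5 and 69.8 at 30 h. The ratio of MYC to MXD RNA was therefore 5.06, 5.48 and 5.17 at day 0 and 0.502, 0.497 and 0.412 at 30 h. MYC family RNA exceeded MXD family RNA in each day 0 library, and the reverse held in each 30 h library. The difference of the mean log2 ratios was -3.48 ± 0.10 (SE over libraries), an 11.2-fold fall. With Mnt and Mga counted among the antagonists it was -2.79.

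The makeup of the MXD family also differed. Mxi1 was the largest part at day 0, with 36.4%, 38.1% and 39.6% of the summed level per kb, and 19.5%, 18.4% and 16.1% at 30 h. Mxd4 went from 27.3%, 26.7% and 27.5% to 2.35%, 2.92% and 2.36%. Mxd1 went from 9.63%, 10.6% and 10.05% to 41.2%, 34.9% and 27.5%, and Mxd3 from 26.7%, 24.5% and 22.8% to 36.9%, 43.8% and 54.0%. In 30 h replicate 1 Mxd1 was the largest part, and in replicates 2 and 3 Mxd3 was. Relative to Max, the MXD family sum was 0.426 ± 0.0129 at day 0 and 2.92 ± 0.134 at 30 h, and the MYC family sum 2.23 ± 0.0358 and 1.37 ± 0.168. The sum of all measured partners per Max was 3.00 ± 0.0420 and 4.63 ± 0.325 (SD, n = 3 each).

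**Figure D3:**
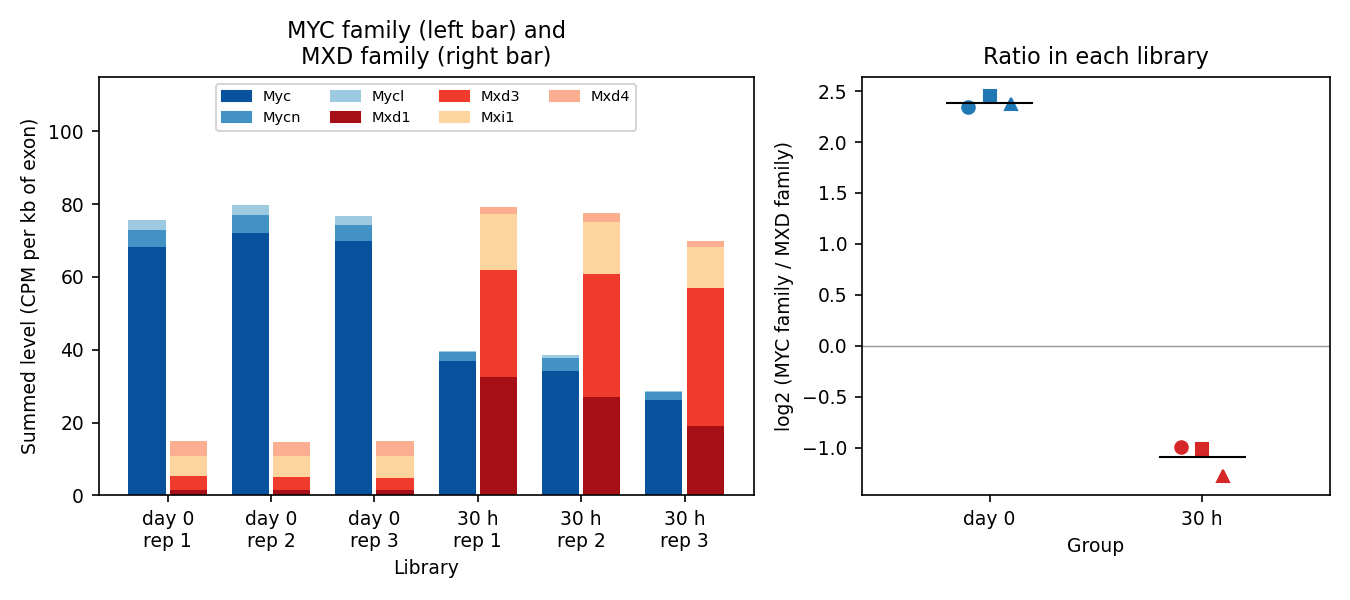
Left, summed CPM per kb of exon of the MYC family (left bar) and the MXD family (right bar) in each library, split by gene; right, the log2 ratio of the sums per library (circle, square and triangle for replicates 1, 2 and 3; day 0 blue, 30 h red), with lines at group means. The ratio is above 0 in all 3 day 0 libraries and below 0 in all 3 libraries at 30 h.

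The E-box CACGTG is the site that all these MAX pairs can bind, so the promoters of the network's own genes were searched for it. The windows reach from 250 bases before to 50 bases after each RefSeq gene start (GRCm38.p6, the assembly of mm10). Of the members, 9 of 10 matched the table and Myc did not. CACGTG, which reads the same on either strand, stood in a window of 3 of these 9 genes, against 8.09% of the 27025 genes in the table. These were Max, Mxd4 and Mnt. Of the MLX genes described below, Mlx and Mlxipl also held it. The sites are shown because they are the network's own recognition sequence, with CACGTG in capitals and each sequence written 5′ to 3′ on the gene's strand:
Max, chr12:76962234-76962263, minus strand: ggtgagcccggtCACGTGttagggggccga
Mxd4, chr5:34187912-34187941, minus strand: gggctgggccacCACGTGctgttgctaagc
Mnt, chr11:74830789-74830818, plus strand: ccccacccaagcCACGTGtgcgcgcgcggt
Mlx, chr11:101087238-101087267, plus strand: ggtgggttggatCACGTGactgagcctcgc
Mlxipl, chr5:135089780-135089809, plus strand: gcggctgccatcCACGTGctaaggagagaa
Counted from the RefSeq start, the first base of CACGTG lay 3 bases before it in Max, so that CACGTG spans that start. It lay 219 bases before the RefSeq start in Mxd4, 123 in Mnt, 40 in Mlx and 98 in Mlxipl. The GENCODE start of Max, chr12:76962201, lies outside the stretch shown. The windows of Mycn, Mycl, Mxd1, Mxd3, Mxi1 and Mga held no CACGTG. Of these, Mxd1, Mxd3 and Mxi1 rose, Mycn and Mycl fell, and Mga did not pass. Of the genes that held it, Max, Mxd4 and Mlxipl fell, Mnt did not pass, and Mlx rose. Whether CACGTG goes with the direction of change was not tested. The GATA motif AGATAA, searched on both strands, stood in no window of the 9 genes and in 12.7% of the genes in the table. A match is a run of letters and not a measured binding site, and no match says only that the letters are absent from the window.

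MLX is a protein related to MAX that pairs with MXD1, MXD4 and MNT, and with the glucose-sensing factors MLXIP (MondoA) and MLXIPL (ChREBP). Mlx (chr11:101087277-101092207) was at 45.4, 42.5 and 44.7 CPM at day 0 and 82.7, 81.6 and 103 CPM at 30 h. It rose 2.02-fold (log2 change 1.01 ± 0.12, edgeR adjusted p = 0.00012), while Max fell. Mlxip, at 35.6, 41.2 and 41.2 CPM at day 0, was at 29.2, 25.5 and 15.3 CPM at 30 h (log2 change -0.75 ± 0.22, edgeR adjusted p = 0.014). Mlxipl, a liver gene, went from 4.69, 6.09 and 4.64 CPM to 0.148, 0.179 and 0.818 CPM, the latter from 3, 3 and 13 counts. Its log2 change was -3.81 ± 0.44 (edgeR adjusted p = 0.000112), and -4.95 without 30h replicate 3. The summed hepatoblast markers given above also fell, and whether that bears on Mlxipl was not tested.

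Among coactivators and partners of MYC, 7 of 12 genes were lower and 1 was higher, with a median log2 change of -0.67. Of all genes tested, 40.1% were lower and 34.4% higher, with a median of -0.09. Kat2a, the GCN5 histone acetyltransferase, fell from 141 ± 6.77 to 24.2 ± 6.26 CPM, a 5.83-fold difference. The AAA+ ATPases of the INO80 and TIP60 complexes fell too, Ruvbl1 by 2.34-fold and Ruvbl2, the member highest per kb of exon, from 363 ± 9.43 to 177 ± 21.0 CPM. Zbtb17, which encodes MIZ1, the factor through which MYC represses genes, was the one called higher, from 32.8 ± 0.883 to 45.6 ± 4.23 CPM, but its log2 change of 0.48 was -0.01 with scaling by totals only. The number of these genes called higher ranged from 0 (totals only) to 3 (DESeq2, or without 30h replicate 3).

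The SIN3 and HDAC corepressor, which MXD proteins and MNT recruit, went mostly the other way. Here 11 of 16 genes were higher and 3 lower, with a median log2 change of 0.55. The shares over all genes tested were 34.4% higher and 40.1% lower, with a median of -0.09. Arid4b, a DNA-binding subunit, rose 3.56-fold, from 16.1 ± 0.898 to 57.4 ± 5.99 CPM. Sap30, a SIN3-associated protein gene, rose 2.85-fold, from 45.7 ± 2.02 to 130 ± 21.5 CPM. Rbbp7, a histone chaperone gene with the highest level per kb of exon averaged over all libraries, fell from 402 ± 9.27 to 270 ± 47.0 CPM, and Hdac2, a deacetylase gene, from 190 ± 2.46 to 132 ± 5.63 CPM. With scaling by totals only, 5 of the 16 were called higher. Among partners of MGA in the Polycomb complex PRC1.6, 5 of 10 were lower and 2 higher, with a median of -0.28. For so few genes these counts are near the shares over all genes, and are not a result about the complex. Pcgf6, its defining ring-finger subunit, fell 2.32-fold and L3mbtl2, a methyl-lysine reader, 1.90-fold. Wdr5, a scaffold listed with both the coactivators and PRC1.6, was the highest per kb of exon at day 0 and fell from 192 ± 2.93 to 121 ± 3.33 CPM. Yaf2, a RYBP relative, was higher with a log2 change of 0.58, and Cbx3, an HP1 gene, with one of 0.48. With scaling by totals only 8 were lower and none higher (Yaf2 and Cbx3 at log2 changes of 0.09 and -0.005), and with upper-quartile scaling 8 were lower. Removing the GC trend put Cbx3 at -0.15, and without day0 replicate 2 it did not pass (0.40, edgeR adjusted p = 0.06).

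Genes that control the stability of MYC protein were split, 7 higher and 6 lower of 16 (4 higher with scaling by totals only), with a median log2 change of 0.21. These counts are near the shares over all genes tested, 34.4% higher and 40.1% lower, and are not a result about the list. Cip2a, whose product shields MYC from a phosphatase, rose from 89.4 ± 3.29 to 231 ± 9.57 CPM, a log2 change of 1.37 that was 0.67 after removal of the GC trend. Usp37, a deubiquitinase gene, rose 2.04-fold. Aurka, a mitotic kinase gene with the highest level of the list per kb of exon, went from 162 ± 1.86 to 325 ± 42.9 CPM. Usp36, a nucleolar deubiquitinase gene, fell 3.19-fold, and Skp2, a ubiquitin ligase gene, 3.02-fold.

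Of 11 genes linked to Myc transcription or to the stability of its messenger RNA, 7 were lower and 2 higher (4 without 30h replicate 3). Their median log2 change was -0.67. Over all genes tested, 40.1% were lower and 34.4% higher, with a median of -0.09. Pvt1, the long non-coding gene next to Myc (chr15:62037986-62378096), was at 7.15, 7.59 and 6.40 CPM at day 0 and at 13.9, 16.0 and 21.1 CPM at 30 h. It thus rose 2.40-fold (edgeR adjusted p = 0.000288) in the libraries where Myc fell. Myb, a progenitor transcription factor gene, fell 5.07-fold, from 188 ± 10.5 to 37.0 ± 5.54 CPM. Igf2bp3, which encodes an RNA-binding protein of fetal cells known to bind Myc RNA, fell 4.93-fold, from 99.1 ± 0.221 to 20.1 ± 3.52 CPM. Ybx1, an RNA-binding protein gene with the highest level of the list per kb, was at 833 ± 21.3 and 498 ± 33.5 CPM, also a fall.

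Of 32 genes known to be activated by MYC, 24 were lower and 4 higher, with a median log2 change of -0.95. Over all genes tested, 40.1% were lower and 34.4% higher, with a median of -0.09. Cad, whose product starts pyrimidine synthesis, was at 573, 603 and 603 CPM at day 0 and at 101, 72.4 and 38.9 CPM at 30 h, an 8.38-fold fall (edgeR adjusted p = 5.53e-05). Polr1b, an RNA polymerase I subunit gene, fell 6.61-fold. The members called higher were Tfrc, Odc1, Hspe1 and Ldha. Tfrc, the transferrin receptor gene, which is also among the erythroid markers summed above, rose 16.7-fold. Odc1, the ornithine decarboxylase gene of polyamine synthesis, went from 288 ± 11.8 to 859 ± 79.3 CPM, although Srm, the next enzyme gene of that pathway, fell 4.12-fold. Ldha, a glycolysis gene and the member highest per kb of exon at day 0, was 1.18-fold higher, but its call was lost or its sign turned in 9 of 15 alternatives. With scaling by totals only, upper-quartile scaling, the stricter filter or any day 0 library left out, 2 of the list were called higher. CACGTG stood in a promoter window of 7 of the 27 genes with an entry (25.9%), against 8.09% of all genes with an entry. Among the genes repressed by MYC, described next, it stood in a window of 2 of the 10 with an entry. CACGTG was thus found in both lists, and their shares were not compared by a test.

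Genes known to be repressed by MYC were higher in 8 of the 11 tested and lower in 2, with a median log2 change of 2.78. Over all genes tested, 34.4% were higher and 40.1% lower, with a median of -0.09. Ddit3, encoding the stress factor CHOP, had the largest rise, from 7.77, 6.58 and 6.65 CPM at day 0 to a mean of 495 ± 53.6 CPM at 30 h, and was the member highest per kb of exon at 30 h. Gadd45a, a growth arrest gene, rose 25.1-fold. Cdkn1c, a cell cycle inhibitor gene, went from 297 ± 30.8 to 25.1 ± 9.40 CPM (log2 change -3.57, and -2.95 after removal of the GC trend), and Ndrg2 was 1.56-fold lower. Cdkn2b had at most 36 counts in a library and was not tested in the main fit. With any library left out, 9 of the list were called higher. These genes answer to many factors besides MYC, and the part of the network in their change was not tested.

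**Figure D4:**
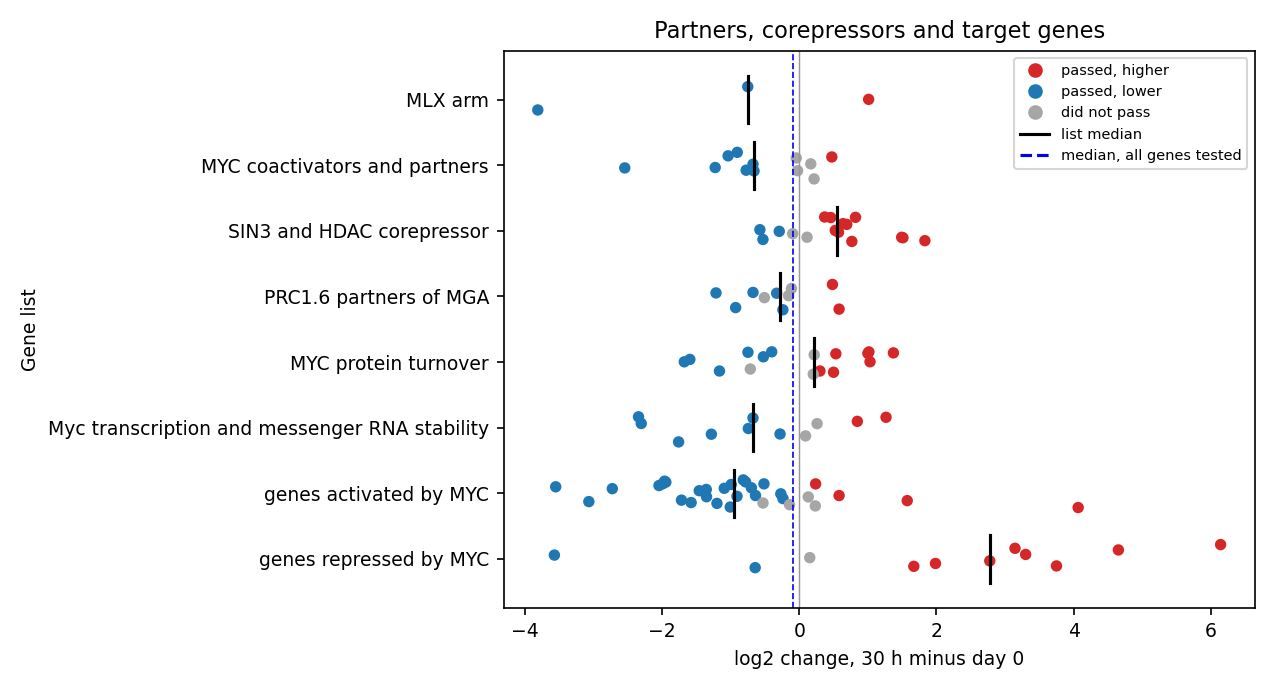
Log2 change at 30 h against day 0 of each tested gene of the MLX arm, the partner lists and the target lists, red where called higher, blue where called lower and grey where the test was not passed, with black bars at list medians. The SIN3 and HDAC genes have a median of 0.55 and the genes repressed by MYC of 2.78, whereas the genes activated by MYC have a median of -0.95.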

How the data were processed

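Gene-level RNA-seq counts were analysed in 6 libraries. Each library has its own deposited table of raw counts, whole numbers listed by Ensembl gene ID. Per the submitters' processing notes the tools were cutadapt 1.13, STAR, HTSeq 0.6.1p1 and DESeq2 on mm10, with settings and strand handling not given in the sources used here. Symbols, positions and exon lengths come from GENCODE M21, on the same assembly. Genes kept by filterByExpr were tested with the quasi-likelihood F test of edgeR 4.0.16 (R 4.3.3), with TMM scaling and Benjamini-Hochberg adjustment over all genes. SE of log2 changes were derived from the F statistic. Alternatives used DESeq2 1.42.0, limma 3.58.1, other scalings and filters, removal of each library's GC trend, the replicate number as a block, and each library left out. The fit was tested on simulated data with the same spread in both groups and few changed genes. These data differ in both respects, so that test does not show how the fit behaves here. Replicates differed beyond sampling noise (chi-square per degree of freedom at least 4.02). The 10 members and the lists were chosen with earlier results of these data known. Named in each longer list are the 2 largest rises and falls past the threshold with at least 10 CPM and the member highest per kb averaged over all libraries. Hspe1, Srm, Cdkn2b and single cell type markers were named after their values were seen. 1 gene that this rule names is not reported here.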

Additional observations from a re-analysis of the deposited data

How the results depend on the processing

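The 3 members called higher numbered 3 under all 15 alternatives, and the number called lower ranged from 5 to 7, at 7 with scaling by totals only or by the upper quartile, where Mnt (log2 changes of -1.06 and -0.74) and Mga were added. Each library left out gave 3 higher and 5 to 6 lower. Mnt also passed with no filter on low counts, the stricter filter and the replicate block (-0.68, -0.68 and -0.65), and reversed to 0.0599 with the GC trend removed. The log2 ratio of MYC to MXD family, -3.48, was -3.16 with no division by length, -2.79 with Mnt and Mga added, -3.40 with longest transcript lengths, -3.47 for Myc alone, and between -3.53 and -3.39 with a library left out. With scaling by totals only, Zbtb17 was at -0.0137, Cbx3 at -0.0045 and Ldha at -0.25, and Cbx3 was at -0.155 with the GC trend removed. Genes called higher among the coactivators were 2 with DESeq2 size factors, limma-trend, the GC trend removed or without 30h replicate 1. PRC1.6 genes called higher were 1 with the GC trend removed or without day0 replicate 2. The labels do not say that replicate numbers pair the libraries, and same-numbered libraries deviated from their group means with correlations of -0.105, 0.105 and -0.0293. With the replicate block 3 members were higher and 6 lower, and 71.4% of all genes were called. Mlxipl gave no value under the stricter filter, which removes it. Counting noise was largest for Mycl at 30 h, with 29 to 56 counts.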

Other observations

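Replicate 3 of the 30 h group held the lowest 30 h value for 8 of the 10 members, against 43.5% of all genes tested, and the highest for 1, Mxd3. The median coefficient of variation of the members was 4.36% at day 0 and 21.6% at 30 h, against 4.79% and 16.1% over tested genes with a mean of at least 1 CPM in both groups. The edgeR fit takes a single spread per gene for both groups, so its SE and p-values pool these unequal spreads. In 30 h replicates 1, 2 and 3 the level of Mxd1 per kb over that of Myc was 0.880, 0.790 and 0.734, and in the day 0 libraries it was 0.0210, 0.0215 and 0.0214. The ratio of Mxd1 to Mxd4 was 0.372 ± 0.0233 before culture and 13.7 ± 3.30 after it (SD, n = 3).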
